A study of Mus musculus with 6 samples.

Results

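The genes described here build the machinery by which a cell stores transmitter or hormone in vesicles and releases it, and they were measured in whole pineal glands of newborn mice. The 30 genes were taken by name from the platform annotation, out of 18193 genes that the array's probe sets name singly, and for each the probe set with the highest mean over the 6 arrays was used. All 30 had at least 1 such probe set, 68 in all, and 21 genes lay above the filter on dim probe sets and were tested. There were 3 wildtype pools from 129 mice and 3 pools from 129 mice homozygous for a knockout of Neurod1, a bHLH transcription factor that works in neurons and endocrine cells. Every pool held 3 glands taken by day at postnatal day 0 from mice housed with 12 h light and 12 h darkness, and was run on 1 Affymetrix array after 1 round of RNA amplification. How the knockout alters Neurod1 is not given in the labels. Both groups are whole glands, in which fewer cells of a type and less RNA per cell cannot be told apart.

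Release of a vesicle depends on SNARE proteins, one set on the vesicle and one on the plasma membrane, which zip together and fuse the membranes. Synaptotagmins such as Syt1 sense the calcium that triggers fusion. Rab3, RIM and Munc13 proteins dock and prime the vesicle beforehand, and the ATPase NSF takes spent SNARE complexes apart. Pinealocytes are related to photoreceptors, carry small vesicles with glutamate transporters, and form synaptic ribbons, but pass melatonin to the blood without packing it into vesicles.

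Neurod1 itself followed the labels, its signal (the deposited linear intensity of a probe set) being 8616 ± 959 over the wildtype pools and 346 ± 204 over the knockout pools (SD, n = 3 each). Some pools stood apart within their genotype. Knockout pool 1 had high transcripts of ribosomal proteins (41 genes, a median log2 value 1.18 over the 6-array mean, against −0.53 to 0.01 elsewhere) and of the respiratory chain (81 genes, 1.21 against −0.79 to 0.14). The summed signal of 9 choroid plexus markers was low in wildtype pool 1, at 5368, as well as in knockout pool 3, at 4123, while the others had 44856 to 99716. Most of the sum in those others was Ttr, with 38903 to 87464, against 898 in wildtype pool 1 and 685 in knockout pool 3. By the median log2 value of the 9 markers, wildtype pool 2 lay between, at −0.34. Wildtype pool 1 and knockout pool 3 had −1.18 and −1.14, and the remaining pools 0.76 to 1.18. The summed signal of 7 male germ cell markers was 29222 in knockout pool 2, 4154 in wildtype pool 2 and 309 to 779 in the others. Of 15 pinealocyte markers, 14 had a probe set and all of these lay above the filter, summing to between 42220 and 68976 in wildtype pools and between 27738 and 53562 in knockout pools. Mean log2 values were lower in knockout for 12 of the 14 and higher for 2, none at a limma adjusted p under 0.05. Their median log2 difference, knockout minus wildtype, was −0.44, beside 0.028 over all tested genes. Between same-numbered pools, 8 of the 14 were lower in knockout in all 3 numbers, beside 15.4% of all tested genes. General neuron markers (11 of 12 with a probe set, 10 above the filter) summed to between 6293 and 12144 in wildtype and between 4758 and 6460 in knockout. Map2 made up a large part of these sums, with 8925, 4358 and 3953 in wildtype and 2586, 3094 and 1883 in knockout. Of the 10 neuron markers above the filter, 5 had lower and 5 had higher mean log2 values in knockout. Markers of macrophages and microglia (10 genes, 9 above the filter) summed to 7550 to 9055 in wildtype and 11093 to 14420 in knockout, and those of meningeal fibroblasts (8 genes, all above the filter) to 82820 to 89197 and 105707 to 127612. Mean log2 values were higher in knockout for all 9 and all 8. Without overlap were 3 of the 9 and 4 of the 8, beside 5.77% of all tested genes that were higher without overlap. Col1a1, Col1a2 and Col3a1 made up most of the fibroblast sums. Knockout pool 1 was below every wildtype pool for Col1a1, Dcn and Lum. No marker of these lists was at 0, and the part of these differences in the results that follow was not tested. A value without a pool leaves out all that is particular to that pool, so it cannot tell these differences apart.

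None of the 21 tested genes differed between knockout and wildtype at a limma adjusted p under 0.05, either over all 12797 genes tested or with the pool number as a block. In that comparison 1 gene of 12797, Neurod1, was called, 0.00781% of those tested. The adjusted p of the 21 genes lay between 0.998 and 0.999, and was at least 0.768 with the block. Mean log2 values, which are meant by means of groups of genes throughout, were lower in knockout for 10 and higher for 11 of the 21, where 46.8% of all tested genes had a lower mean. Their median log2 difference, knockout minus wildtype, was 0.056, beside 0.028 over all tested genes. It turned negative without knockout pool 1 (−0.14) or wildtype pool 3 (−0.11) and was 0.20 without knockout pool 3. An unadjusted p under 0.05 was reached by 2 of 21, Unc13a and Syt11, or 9.52%, beside 3.34% of all tested genes. Both were higher in knockout, which 1.98% of all tested genes were at that p, and none was lower, beside 1.37%. With the block, 3 of 21 (14.3%; Syt11, Unc13a and Syt4, all higher) reached it, beside 6.24%. The 3 knockout pools did not overlap the 3 wildtype pools for 4 of 21, 19.0%, beside 10.1% of all tested genes. These were Unc13a, Syt11 and Sv2b, higher in knockout, and Syngr3, lower, where 5.77% of all tested genes were higher and 4.33% lower without overlap. The knockout was lower within all 3 numbers for 5 of 21 and higher within all 3 for 4 of 21, beside 15.4% and 14.9% of all tested genes. These shares rest on 2 to 5 genes each. The 95% interval of the log2 difference lay within a doubling or halving, from −1 to 1, for 10 of 21 genes, so changes of that size were not excluded for the other 11.

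**Figure D1:**
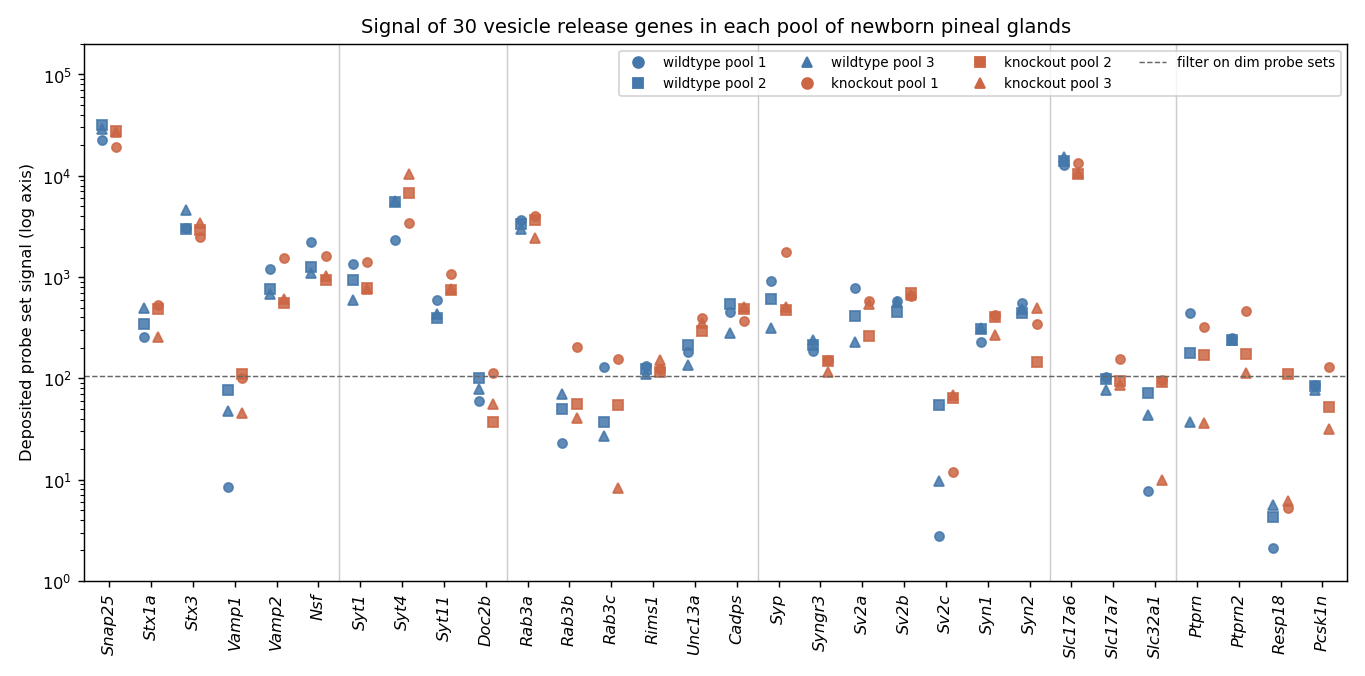
Deposited signal (log axis) of all 30 genes in each pool, with wildtype in blue and knockout in orange and marker shapes for the pool numbers; vertical lines part the roles and the dashed line is the filter on dim probe sets. The pools of both genotypes overlap for most genes, and 9 genes lie below the filter.

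**Figure D2:**
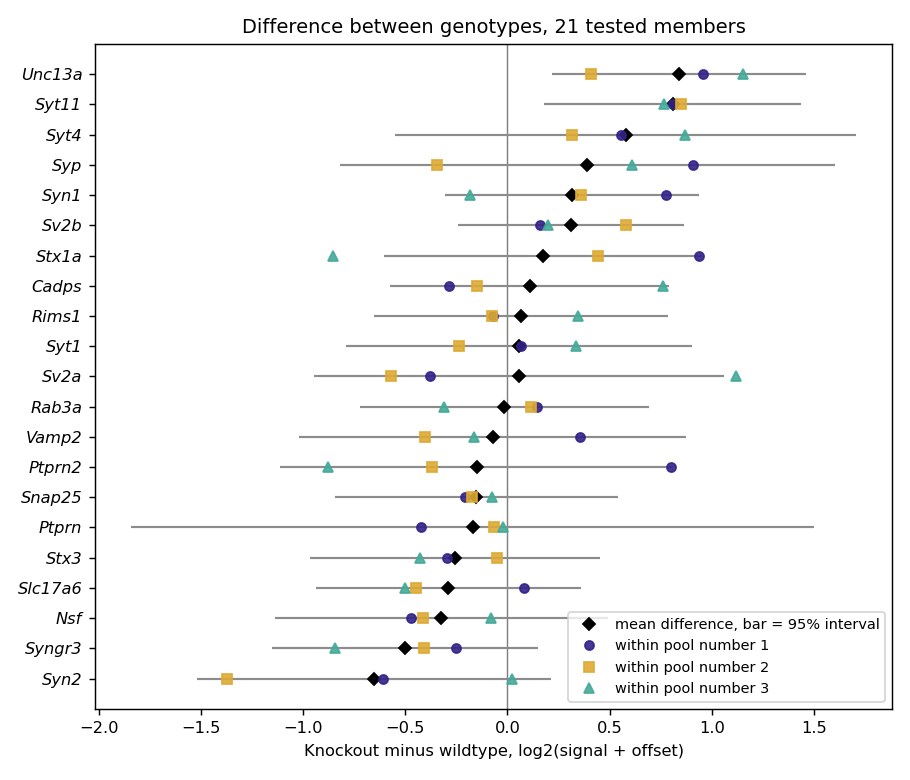
Difference between genotypes for the 21 tested genes on the scale log2(signal + 38.6): black diamonds are means over 3 pools each with the 95% interval of the limma fit as a grey bar, coloured symbols are the difference within each pool number. Unc13a and Syt11 have intervals above 0 before adjustment for the number of genes, and 10 means are below 0.

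Several of these genes are covered by more than 1 probe set, and these did not always give the same difference. When all 22012 probe sets above the filter were tested one by one, an alternative chosen after seeing the data, none of the 39 that belong to the 21 genes was called (limma adjusted p of 0.999, and at least 0.750 with the block), beside 2 of 22012, or 0.00909%, over all probe sets. Of the 39, 4 reached an unadjusted p under 0.05, 10.3% beside 3.36% of all probe sets, and 6 did not overlap between genotypes, 15.4% beside 9.95%. With the block, 5 of 39 reached an unadjusted p under 0.05, 12.8% beside 6.38%. The 4 belong to Slc17a6, Unc13a, Nsf and Syt11. In Slc17a6 and Nsf it was not the probe set of highest mean.

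Promoters of these 4 genes are shown because their probe sets differed most between the genotypes, and the missing factor binds E-boxes, short sites of the form CANNTG. RefSeq starts on GRCm38.p6 matched 25 of the 30 genes, and the windows are the 250 bases before a start, 5′ to 3′ on the gene's strand, with every CANNTG in capitals. Slc17a6 has 2 listed starts on the plus strand, chr7:51621580-51621829 and chr7:51624387-51624636. Unc13a lies on the minus strand at chr8:71671758-71672007, Nsf on the minus strand at chr11:103954057-103954306 and Syt11 on the minus strand at chr3:88772600-88772849.
Slc17a6 first start: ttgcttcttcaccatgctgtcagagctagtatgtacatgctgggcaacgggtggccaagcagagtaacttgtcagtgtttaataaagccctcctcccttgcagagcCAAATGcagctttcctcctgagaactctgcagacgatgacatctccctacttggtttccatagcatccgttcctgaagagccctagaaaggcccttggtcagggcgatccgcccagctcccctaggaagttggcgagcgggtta
Slc17a6 second start: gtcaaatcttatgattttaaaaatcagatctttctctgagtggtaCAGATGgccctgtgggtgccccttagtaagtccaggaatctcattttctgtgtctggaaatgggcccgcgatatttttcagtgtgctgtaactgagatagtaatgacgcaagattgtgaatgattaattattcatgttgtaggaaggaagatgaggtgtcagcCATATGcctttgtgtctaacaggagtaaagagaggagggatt
Unc13a: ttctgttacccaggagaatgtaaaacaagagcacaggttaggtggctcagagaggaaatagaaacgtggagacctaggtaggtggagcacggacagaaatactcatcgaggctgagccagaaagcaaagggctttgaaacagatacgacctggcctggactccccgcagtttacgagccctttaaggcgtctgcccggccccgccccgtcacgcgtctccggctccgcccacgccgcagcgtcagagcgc
Nsf: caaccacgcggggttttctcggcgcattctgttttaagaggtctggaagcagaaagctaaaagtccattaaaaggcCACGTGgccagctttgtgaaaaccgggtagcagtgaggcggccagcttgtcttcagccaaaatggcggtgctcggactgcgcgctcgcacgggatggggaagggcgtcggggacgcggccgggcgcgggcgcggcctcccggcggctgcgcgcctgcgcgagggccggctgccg
Syt11: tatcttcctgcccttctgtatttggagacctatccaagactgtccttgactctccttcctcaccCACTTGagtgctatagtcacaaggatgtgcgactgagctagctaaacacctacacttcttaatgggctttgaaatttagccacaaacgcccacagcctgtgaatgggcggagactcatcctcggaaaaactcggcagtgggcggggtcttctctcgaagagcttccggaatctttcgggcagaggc
The first Slc17a6 window holds 1 E-box, the second holds 2, Nsf and Syt11 hold 1 each, and no CANNTG is in the Unc13a window. CANNTG reads the same on both strands and was found in 66.2% of 32851 windows of this length, and in 24 of the 33 windows of the vesicle release genes (72.7%). The form CAGCTG, which CANNTG includes, was in 13.0% of all windows and 6 of 33. CAGATG, searched on both strands and also included in CANNTG, was in 14.4% of all windows and in 2 of 33, among them the second Slc17a6 window. A match describes the letters of the window and is not a binding site.

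Among the SNAREs Snap25, Stx1a, Stx3 and Vamp2 and the disassembly ATPase Nsf, means were lower in knockout for all but Stx1a, none past the threshold. Snap25, the plasma membrane SNARE that contributes a pair of helices to the complex, had signals of 22299, 31379 and 28682 in wildtype pools 1, 2 and 3 and 19275, 27856 and 27185 in knockout. The genotypes overlapped, while both pools numbered 1 were the lowest of their genotype. Its log2 difference was −0.15 (SE 0.31, 95% interval −0.84 to 0.54), and 0.02 without knockout pool 1. The dimmer Snap25 probe set 1447763_at had 993, 1910 and 5119 in wildtype and 1539, 1524 and 4524 in knockout, so that both pools numbered 3 were high, and it differed by 0.039. Stx1a, the syntaxin of conventional synapses, had 257, 344 and 496 in wildtype and 527, 480 and 257 in knockout, with overlap. It differed by 0.17 (SE 0.34) on a probe set whose suffix, x, marks probes that can bind other transcripts. The Stx1a value was −0.030 without wildtype pool 1 and −0.0022 without knockout pool 1.

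Stx3, the syntaxin of ribbon synapses in photoreceptors, gave different values on its 4 probe sets above the filter. On 1425536_at, the one with the highest mean, signals were 3029, 3010 and 4607 in wildtype and 2460, 2906 and 3414 in knockout, with overlap, and the log2 difference was −0.26 (SE 0.31), or −0.057 without wildtype pool 3. On 1425530_a_at they were 4349, 3251 and 2353 in wildtype and 2838, 1802 and 1528 in knockout. There the knockout pool was lower within every number, by −0.61, −0.84 and −0.61, although the genotypes overlapped, and the mean difference was −0.69 (SE 0.36, and 0.23 with the block). Pool 3 was thus the brightest wildtype pool on one probe set and the dimmest on the other, as was knockout pool 3. The remaining probe sets gave −0.12 and 0.44. Suffix a marks probes shared by several transcripts of 1 gene, and the table does not say which Stx3 transcripts each probe set reads.

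Vamp2, the SNARE of the synaptic vesicle, had 1203, 755 and 685 in wildtype and 1550 (pool 1), 561 and 607 in knockout. Pools numbered 1 were the highest of both genotypes, and the log2 difference of −0.071 (SE 0.42) turned to 0.17, 0.18 and 0.13 when wildtype pool 1, knockout pool 2 or knockout pool 3 was left out. Vamp1, its relative of spinal and motor synapses, lay below the filter with signals of 8.4 to 111 on its brighter probe set. Nsf had 2235, 1269 and 1098 in wildtype and 1600 (pool 1), 942 and 1036 in knockout on its brightest probe set, a log2 difference of −0.32 (SE 0.36) that was −0.023 without wildtype pool 1 and −0.55 without knockout pool 1. Its probe set 1422455_s_at had 581, 601 and 590 in wildtype and 173, 316 and 420 in knockout, without overlap. That difference was −0.95 (SE 0.32), and −1.55, −0.85 and −0.45 within numbers 1, 2 and 3. Without knockout pool 1 it was −0.64. Suffix s marks probes common to transcripts of more than 1 gene, so this value is uncertain for Nsf. A further Nsf probe set above the filter differed by 0.082.

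**Figure D3:**
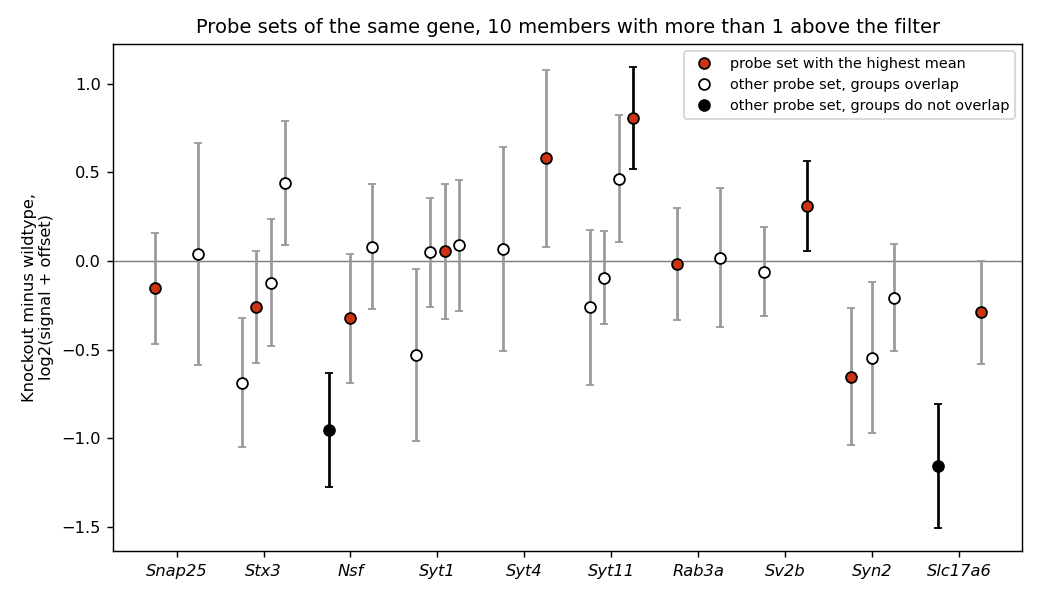
Log2 difference, knockout minus wildtype, of every probe set above the filter for the 10 genes with more than 1; bars are the standard error of the limma fit of single probe sets, red fill marks the probe set of highest mean and black bars mark probe sets whose genotypes do not overlap. Slc17a6 runs from −1.16 to −0.29, Nsf from −0.95 to 0.082 and Stx3 from −0.69 to 0.44 between probe sets of 1 gene.

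The synaptotagmins had higher means in knockout for all 3 tested genes, none past the threshold. They are grouped here as a family, which does not mean that each senses calcium. Syt11, a synaptotagmin that lacks calcium binding and is known from membrane traffic, had 589, 395 and 437 in wildtype and 1064, 742 and 769 in knockout on 1456464_x_at. The genotypes did not overlap, and the knockout was higher by 0.81, 0.85 and 0.76 within numbers 1, 2 and 3. Its log2 difference was 0.81 (SE 0.28, 95% interval 0.18 to 1.44) and lay between 0.65 and 0.96 when any 1 pool was left out, at a limma adjusted p of 0.998. A second probe set, 1455176_a_at, was also higher in knockout within every number but overlapped, with 274, 158 and 134 in wildtype and 399, 236 and 193 in knockout, and 0.48, 0.48 and 0.43 within the numbers. The other Syt11 probe sets above the filter, 1429314_at and 1429315_at, had −0.26 and −0.093. The Syt11 value therefore depends on the probe set, and the brightest carries the suffix x.

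Syt4, a synaptotagmin of dense-core vesicles, had 2306, 5473 and 5651 in wildtype and 3405, 6817 and 10342 in knockout. Both pools numbered 1 were the lowest, the genotypes overlapped, and the log2 difference was 0.58 (SE 0.50, and 0.25 with the block, at a limma adjusted p of 0.768). Leaving out wildtype pool 1 gave 0.16, and leaving out knockout pool 1 gave 1.01. Within numbers 1, 2 and 3 it was 0.55, 0.31 and 0.87. On the second Syt4 probe set it was 0.069, and −0.39 within number 2. Syt1, the fast calcium sensor of synchronous release, had 1341, 930 and 597 in wildtype and 1407, 784 and 764 in knockout. Its difference of 0.057 (SE 0.38) was −0.22 without knockout pool 1, −0.23 without wildtype pool 3 and −0.083 with arrays centred on their medians, so no direction can be given. The remaining Syt1 probe sets ranged from −0.53 to 0.089. Doc2b, a high-affinity calcium sensor of spontaneous release, was below the filter.

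Of docking and priming genes, means were higher in knockout for 3 and lower for 1 of the 4 tested, none past the threshold. Unc13a, which encodes the priming factor Munc13-1, had 183, 214 and 137 in wildtype and 392, 297 and 351 in knockout. Every knockout pool was above every wildtype pool, and the ratio of means was 1.95. On the log2 scale the difference was 0.84 (SE 0.27, 95% interval 0.22 to 1.46), at a limma adjusted p of 0.998, with 0.96, 0.41 and 1.15 within the numbers. It stayed between 0.70 and 0.96 when any 1 pool was left out, and only this 1 probe set names the gene alone. Rab3a, the vesicle GTPase, was nearly level, with 3651, 3371 and 3002 in wildtype and 4044, 3658 and 2416 in knockout, a log2 difference of −0.015 (SE 0.31, 95% interval −0.72 to 0.69) that was 0.21 at most and −0.16 at least when 1 pool was left out. The Rab3a probe set carries the suffix x, and its other probe set differed by 0.019. Rims1, the active zone scaffold RIM1, had 133, 124 and 110 in wildtype and 124, 115 and 151 in knockout and differed by 0.065 (SE 0.32), or −0.020 without knockout pool 3. Cadps, the priming factor of dense-core vesicles, had 453, 547 and 280 in wildtype and 364, 489 and 501 in knockout on a probe set with suffix s. It differed by 0.11 (SE 0.30), and by −0.14 without wildtype pool 3. Rab3b and Rab3c were below the filter, where Rab3b had 206 in knockout pool 1 and 23.1 to 69.6 in the other pools.

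Proteins of the vesicle membrane, with the synapsins counted among them, had higher means in knockout for 4 and lower means for 2 of the 6 tested genes, none past the threshold. Syngr3, a synaptogyrin of synaptic vesicles, had 187, 212 and 240 in wildtype and 151, 150 and 117 in knockout, without overlap. Its log2 difference was −0.50 (SE 0.29, 95% interval −1.15 to 0.15). Sv2b, a vesicle glycoprotein also found in ribbon synapses, had 580, 450 and 574 in wildtype and 651, 693 and 664 in knockout, again without overlap, a difference of 0.31 (SE 0.24), or 0.20 without wildtype pool 2. The second Sv2b probe set differed by −0.061. Syp, synaptophysin, had 915, 613 and 315 in wildtype and 1752, 474 and 502 in knockout. The Syp difference was 0.39 (SE 0.54) with all pools, −0.20 without knockout pool 1 and 0.13 without both pools numbered 1. Within numbers 1, 2 and 3 it was 0.91, −0.35 and 0.61. Ribosomal transcripts were high in knockout pool 1, and their part was not tested. Sv2a, the relative of Sv2b, had 773, 410 and 231 in wildtype and 585, 263 and 546 in knockout and differed by 0.056 (SE 0.44), or −0.33, −0.13 and −0.088 when wildtype pool 3, knockout pool 1 or knockout pool 3 was left out.

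The synapsins, which tether vesicles in the reserve pool and are known to be scarce at ribbon synapses, had means in opposite directions, neither past the threshold. Syn1 had 231, 305 and 313 in wildtype and 422, 402 and 270 in knockout (log2 difference 0.32, SE 0.28, and 0.19 without wildtype pool 1 or 0.50 without knockout pool 3). Syn2 had 550, 439 and 483 in wildtype and 348, 146 and 492 in knockout. Its log2 difference of −0.65 (SE 0.38) shrank to −0.22 without knockout pool 2 and was −0.98 without knockout pool 3. Male germ cell markers were highest in knockout pool 2, and their part was not tested. The other Syn2 probe sets above the filter gave −0.55 and −0.21. Sv2c was below the filter.

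Vesicular transporters load the transmitter, and 1 of the 3 here was above the filter. Slc17a6, the glutamate transporter VGLUT2, had 12707, 14111 and 15199 in wildtype and 13436, 10319 and 10739 in knockout on 1428379_at. The genotypes overlapped through knockout pool 1, and the log2 difference was −0.29 (SE 0.29, 95% interval −0.94 to 0.36), with 0.08, −0.45 and −0.50 within the numbers. On 1418610_at the signals were 2457, 4201 and 2979 in wildtype and 1006 (pool 1), 1862 and 1415 in knockout. No pools overlapped on that probe set, and wildtype exceeded knockout 2.25-fold in the ratio of means. Its log2 difference was −1.16 (SE 0.35, and 0.23 with the block), at a limma adjusted p of 0.999 without and 0.750 with the block. Within numbers 1, 2 and 3 it was −1.26, −1.16 and −1.05, and it lay between −1.36 and −0.93 when any 1 pool was left out. The Slc17a6 promoters printed above belong to separate starts, and the table does not say which transcripts either probe set reads. Slc17a6 is also a gene of habenula and thalamus neurons, next to the pineal gland. Of 10 markers of these neurons, 5 were above the filter, and the summed signal of all 10 was 7727 to 9221 in wildtype and 5455 to 12670 in knockout. Most of that sum came from Lhx9 (4327 to 4478 in wildtype, 2108 to 4025 in knockout), Tcf7l2 and Lef1. Gpr151, Tac2, Nhlh2, Calb2 and Chrnb3 were below the filter, at 2.1 to 180. Pou4f1 had 818 in knockout pool 3 and 74.1 to 162 in the other pools. The part of these neurons in the Slc17a6 values was not tested.

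The other transporters were dim. Slc17a7, the glutamate transporter VGLUT1, had 76.8 to 104 in wildtype and 86.4 to 156 in knockout, a mean of 101 over the 6 arrays against the filter at 105, while Rims1, just above the filter, had a mean of 126. Slc32a1, the transporter for GABA and glycine, was at 7.7 to 95.4 on its brightest probe set. Another Slc32a1 probe set had 172 in knockout pool 1 against 4.7 to 57.7 in the remaining pools. The 6 markers of inhibitory neurons summed to between 415 and 820 in wildtype and between 712 and 1146 in knockout, the highest being that of knockout pool 1, with 3 of the 6 above the filter.

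Of the dense-core granule genes, Ptprn and Ptprn2 were above the filter. Ptprn, the granule membrane protein IA-2, had 441, 179 and 37.1 in wildtype and 319, 169 and 36.0 in knockout. Same-numbered pools were close to each other while the numbers lay far apart, and 98.5% of the sum of squares of its 6 log2 values lay between numbers, against 0.702% between genotypes. Its difference of −0.17 (SE 0.74, and 0.33 with the block) has an interval of −1.84 to 1.50. The Ptprn value was 0.46 without wildtype pool 1 and 0.45 without knockout pool 3. Ptprn2, or phogrin, had 251, 237 and 242 in wildtype and 466, 175 and 114 in knockout, so that wildtype pools were nearly level and knockout pools were not. Its difference was −0.15 (SE 0.43), and 0.22 without knockout pool 3. Resp18 and Pcsk1n, of endocrine granules, were below the filter, with Resp18 at 110 in knockout pool 2 and 2.1 to 6.1 elsewhere.

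The 9 genes below the filter were Vamp1, Doc2b, Rab3b, Rab3c, Sv2c, Slc17a7, Slc32a1, Resp18 and Pcsk1n. Their 18 probe sets had signals of 0.4 to 206 with a median of 29.9, and 13 of the 108 values exceeded 100. Knockout pool 1 was the highest of the 6 pools for Doc2b, Rab3b, Rab3c, Slc17a7, Slc32a1 and Pcsk1n, and no difference is drawn from them. Probe sets of different genes bind with different strength, so these signals set no order of abundance between genes.

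The pool number, which the labels tie to a shared date, took a larger part of the variation than the genotype in 14 of the 21 genes, as it did in 9697 of all 12797 tested. The number has more levels than the genotype, so a larger part for it is favoured even without any effect. Over the 21, a median of 52.2% of the sum of squares of a gene lay between numbers and 10.3% between genotypes, beside 50.6% and 11.1% over all tested genes, so this part was about the same as in genes at large. Above 50% between numbers were 11 genes: Ptprn, Syt1, Vamp2, Snap25, Rab3a, Nsf, Syp, Syt4, Stx3, Sv2a and Ptprn2. Ptprn, Syt1, Vamp2, Nsf, Syp, Sv2a, Rab3a and Ptprn2 had their highest signal of each genotype in the pool numbered 1. Syt4 and Snap25 had their lowest there. Beside them, pinealocyte markers were high in both pools numbered 1, with a median log2 value 0.76 (wildtype) and 0.37 (knockout) over the 6-array mean, against −0.81 to 0.22 in the other pools, and their part in the pattern was not tested. Knockout pool 1 held the highest value of 9 of the 21 genes.

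**Figure D4:**
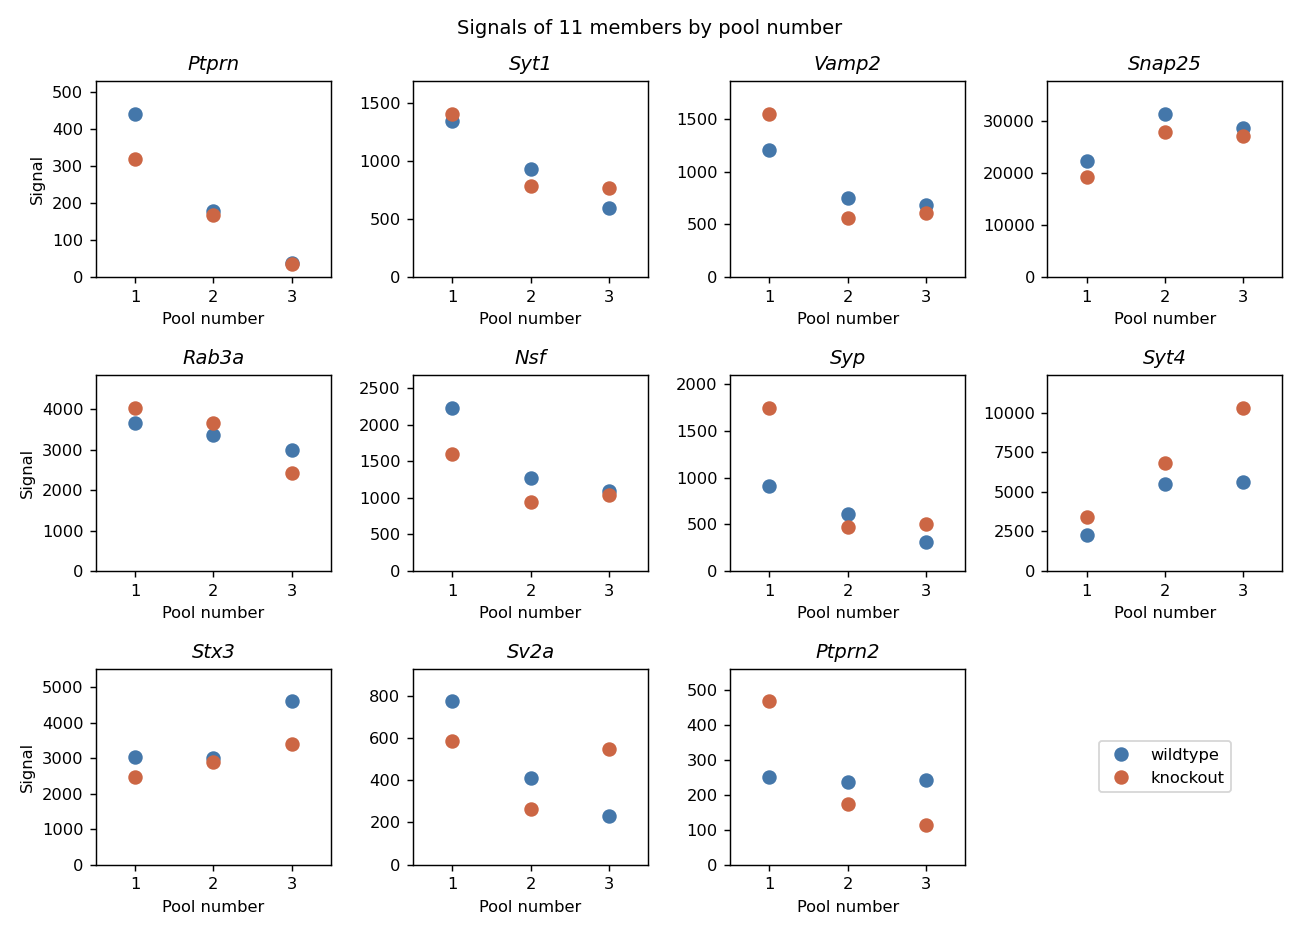
Signal (linear axis from 0) against pool number for the 11 tested genes with over 50% of their sum of squares between numbers; blue points are wildtype and orange points knockout pools. In Ptprn the points of a number nearly coincide and fall from 441 and 319 in number 1 to 37.1 and 36.0 in number 3, while Syt4 is lowest in number 1.

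A wider set of 130 release genes, listed with earlier results of these data known, was read in the same fit. Of these, 123 had a probe set of their own and 112 were tested. None was called, and 63 had lower and 49 higher means in knockout, 56.2% lower beside 46.8% of all tested genes. The median log2 difference was −0.080, beside 0.028, and it was 0.011 without knockout pool 3. An unadjusted p under 0.05 was reached by 4 of 112, 3.57% beside 3.34%, and the genotypes did not overlap for 10, 8.93% beside 10.1%. With the block, 11 of 112 reached it, 9 lower and 2 higher, 9.82% beside 6.24%. The knockout was lower within all 3 numbers for 23 of 112 and higher within all 3 for 15, beside 15.4% and 14.9% of all tested genes. By role, lower means were found for 17 of 25 genes listed with SNAREs and chaperones (Snap91 among them) and 5 of 11 listed with calcium sensors. They were also found for 13 of 26 docking, priming and active zone genes, 13 of 24 vesicle membrane genes and transporters, and 15 of 26 recycling genes.

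The named genes of the wider set are those with the smallest p of each role, and all had a limma adjusted p of 0.998. Cplx4, a complexin of ribbon synapses that clamps SNARE complexes, had 2872 ± 150.3 over wildtype and 1488 ± 188 over knockout pools (SD, n = 3 each; the difference on the log2 scale was −0.94, SE 0.27). Snap91, the clathrin adaptor AP180 and by function no SNARE, had 3018 ± 650 and 1750 ± 438 (−0.78, SE 0.32). Genotypes did not overlap for either. Rph3a, the Rab3 effector rabphilin, had 72.9 ± 26.2 and 204 ± 105 (1.05, SE 0.43), and Doc2g 139 ± 59.1 and 189 ± 46.1 (0.40, SE 0.37, and 0.11 without wildtype pool 1 or 0.62 without wildtype pool 3). Rph3a also did not overlap, and its difference was 0.74 to 1.40 when any 1 pool was left out. Its wildtype signals of 47.2 to 99.6 were all under the filter at 105, which it passed through knockout pools 1 and 3. The filter thus favours a higher knockout for Rph3a, and nothing is drawn from its lack of overlap. The other Rph3a probe set, below the filter, differed by 0.034. Erc1, an active zone scaffold also present in many other cells, had 265 ± 24.6 and 403 ± 60.1, without overlap (0.53, SE 0.25). Its other probe sets above the filter had 0.094 and −0.16. Ppfia2, the scaffold liprin-alpha-2, had 341 ± 71.0 and 200 ± 136 (−0.80, SE 0.40), and −1.23 to −0.51 when any 1 pool was left out. In the proton pump that acidifies vesicles, Atp6v0a1 had 230 ± 100 and 350 ± 26.3 (0.59, SE 0.31) and Atp6v1b2 2263 ± 1101 and 1230 ± 197 (−0.74, SE 0.41, and −1.17 to −0.40 when any 1 pool was left out), means in opposite directions. The remaining Atp6v1b2 probe sets above the filter had −0.89, −0.058 and 0.39, and those of Atp6v0a1 0.21 and −0.25. Dnm2, the dynamin of all tissues, had 396 ± 64.5 and 648 ± 81.6 (0.66, SE 0.25), without overlap, and its further probe sets ranged from −0.070 to 0.82. Ap3b2, the neuronal AP-3 subunit, had 336 ± 209 and 136 ± 79.0 (−1.06, SE 0.48, and −0.64 without wildtype pool 1), while its second probe set differed by 0.48.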

How the data were processed

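The authors deposited 1 linear signal intensity per probe set and array, 45037 probe sets on 6 arrays; per the submitters' processing notes the software was GCOS, and no source used here gives the signal algorithm. Per the deposited intensity values, each array's 2% trimmed mean lay between 499.5 and 499.96, so arrays had been scaled before deposit. Detection calls and scanner files were not used here. The platform annotation names 1 gene for 34945 probe sets, several for 932 and none for 9160, and only the first kind was used.

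Values were taken as log2(signal + 38.6), the offset being the 20th percentile of all values, which understates differences of dim genes. The dimmest 40% of probe sets by mean log2 value (signal under 105) were left out, and a gene's probe set of highest mean was kept. Genes were compared with limma 3.58.1 in R 4.3.3 (lmFit, eBayes with trend, 4 residual degrees of freedom, two-sided) and adjusted by Benjamini-Hochberg at 0.05 over 12797 genes; the script was tested on simulated data. SEs come from that fit, or, for probe sets other than the brightest, from a fit of single probe sets. An exact permutation test of 3 against 3 pools cannot go below 0.1, so none was run. Precision is limited by there being 3 arrays per genotype. Each pool was a separate sampling per the series' design text.

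The members, gene lists and tests were chosen with earlier results of these data known; all 30 members are named, and of the wider set up to 2 tested genes per role with the smallest p. The genes whose promoters are printed were chosen after their values were seen. Deviations from the group means correlated by 0.32, 0.25 and 0.36 within numbers 1, 2 and 3, and same-numbered pools share a date in the labels, so the number was used as a block in an alternative (2 residual degrees of freedom). Other alternatives changed the offset, normalization, filter, probe sets, variance trend and pools.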

Additional observations from a re-analysis of the deposited data

How the results depend on the processing

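Under none of the 18 alternatives, nor with each probe set tested separately, was any tested vesicle release gene or gene of the wider set called, with the replicate block included (0 called in each, and a smallest adjusted p of 0.54 over the alternatives for the 21 genes). Of the 30 genes 21 were tested, except 22 with no offset, 17 with the lowest 60% left out and all 30 with no filter. In limma, 2 of the 21 genes had an unadjusted p under 0.05. The replicate block left every difference as it was and changed no call. The 1 gene called lower, Neurod1, was not called (0 genes) with no offset, with quantile normalization or without both pools numbered 1, 2 or 3, and the count was 0 to 1 when 1 pool was left out. Without any 1 pool, its log2 difference ran from −5.04 to −4.13. In settings that missed even Neurod1, the lack of a called vesicle release gene says little.

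Centring arrays on their medians moved the median of all genes from 0.028 to −0.11, and that of the vesicle release genes from 0.056 to −0.084, with 14 of 21 lower; without both pools numbered 3 the latter was −0.075, and it ran from −0.14 to 0.20 when 1 pool was left out. Of 21 genes, 10 kept their sign under all alternatives run, and 35 of 374 values of single genes changed sign. Many of the 374 could not change, so these counts overstate how stable the signs are. The filters, variance trend and block leave a gene's difference as it was. So does the mean of all probe sets for the 11 genes with 1 probe set above the filter. Signs changed with arrays centred for Syt1 (−0.083), Rims1 (−0.075), Cadps (−0.031) and Sv2a (−0.084). With quantile normalization they changed for Rab3a (0.012) and Rims1 (−0.072), and with the mean of all probe sets for Syt1 (−0.084) and Rab3a (0.0016). Without both pools numbered 1 it was Stx1a (−0.21), without those numbered 2 Vamp2 (0.095), and without those numbered 3 Syt1 (−0.084), Rab3a (0.13), Rims1 (−0.075), Cadps (−0.22), Sv2a (−0.47) and Ptprn2 (0.21). In the wider set, 1 of 177 values changed sign, that of Doc2g without both pools numbered 1 (−0.029), and the same limit holds for this count. When 1 pool was left out, the values ran from −0.30 to 0.018 for Snap25, −0.030 to 0.46 for Stx1a, −0.52 to 0.18 for Vamp2, −0.23 to 0.33 for Syt1, −0.16 to 0.21 for Rab3a, −0.020 to 0.13 for Rims1, −0.14 to 0.30 for Cadps, −0.20 to 0.72 for Syp, −0.33 to 0.46 for Sv2a, −0.87 to 0.46 for Ptprn and −0.64 to 0.22 for Ptprn2. The cause of these changes was not tested. Signal over background could not be judged without detection calls, so differences of genes near the filter are the least certain.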
